A study of Rattus norvegicus with 8 samples.

Results

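A set of 10 imprinted genes was followed in the testicular germ cells of young rats given vehicle or a chemotherapy drug. The genes were Igf2, H19, Peg3, Mest, Peg10, Grb10, Plagl1, Igf2r, Snrpn and Meg3, each taken as the row of the count table that carries its symbol. Of these 10 genes, 9 had a row, no symbol was repeated, and all 9 passed the filter on low counts, among 24059 genes in the table and 16976 tested. The expression of Meg3 was not analysed here. Germ cells were isolated as GFP-positive cells from testes of transgenic Sprague-Dawley rats (GCS-EGFP), a genotype that both groups share, and the labels add the entry SSC without spelling it out. The control group was 4 rats given vehicle on postnatal day 6 (rats 1, 4, 5 and 9), and the doxorubicin group was 4 rats given doxorubicin at 5 mg/kg on that day (rats 2, 3, 6 and 8). Cells were taken 24 h later and polyA RNA was sequenced, with 1 library per rat. Doxorubicin is an anthracycline that poisons topoisomerase II and breaks DNA. The labels give no finer gate than GFP, so different stages of spermatogonia, the germ cells of the testis at this age, were measured together.

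Imprinted genes are transcribed mainly or only from the allele inherited from 1 parent, through DNA methylation set in the germ line of the mother or the father, which may mark the silent or the expressed copy. In the male germ line these marks are erased in primordial germ cells, and the paternal pattern is then written before birth and kept by dividing spermatogonia. The parental labels given below for each gene are therefore those of somatic tissue, as background, and the counts do not separate alleles. Many imprinted genes act on growth, and Igf2, a growth factor, and Igf2r, the receptor that clears it, are the classic pair with opposed parental expression.

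Imprints are protected after fertilisation by ZFP57, a zinc finger protein that binds the methylated hexamer TGCCGC. The hexamer was searched on both strands (TGCCGC and GCGGCA, with no other motif searched) in the 250 bases before each gene start in RefSeq's GRCr8 assembly. Of the 10 genes, 9 matched the promoter table, with 10 windows because Igf2 has 2 starts, and 5 of these 10 windows held the hexamer, against 8.91% of 33469 windows of the same length. The windows of Igf2 (one of its starts), Peg10, Plagl1, Snrpn and Meg3 held it. The stretches around it in the 4 measured genes are shown to place the hexamer in its context. The hexamer, on either strand, is in capitals, and each strand is read 5′ to 3′ towards the gene.
Igf2, chr1:207254185-207254230, minus strand: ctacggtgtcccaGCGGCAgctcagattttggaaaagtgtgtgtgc
Peg10, chr4:33808858-33808917, plus strand: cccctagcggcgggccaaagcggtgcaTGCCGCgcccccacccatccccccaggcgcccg
Plagl1, chr1:9297337-9297396, plus strand: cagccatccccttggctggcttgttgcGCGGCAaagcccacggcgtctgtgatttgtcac
Snrpn, chr1:120339113-120339169, minus strand: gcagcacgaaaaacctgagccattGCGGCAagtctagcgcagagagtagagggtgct
The hexamer holds a CpG, and all 10 windows had more CpG sites than the median of 5.0 over all windows. They ran from 7 in the Snrpn window and 1 Igf2 window to 38 in the Grb10 window, more than 98.3% of all windows. The 8.91% share was not matched for CpG sites, so the 5 of 10 is no result about imprinted genes. A match in these windows is a description of the letters and says nothing about binding or methylation, which were not measured.

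The libraries held 41253848 to 58871101 estimated counts. Abundance is given as CPM, counts per 1000000 library counts after TMM scaling, with SD over 4 rats, and log2 fold changes are given ± SE. CPM is not corrected for transcript length, so levels are compared between rats and not between genes. The rarest of the 9 genes, Snrpn, had at least 615 counts in each library, a counting error of at most 4.03%. Germ cell markers were abundant, with Dazl at 751.6 CPM and Ddx4 at 377 CPM in controls. Of 13 germ cell genes tested, 0 were called, where edgeR called 0.112% of all genes tested, so this count is near the background. Those with the smallest p were Tex101 (log2 fold change -0.09 ± 0.04, edgeR adjusted p = 0.635), Dazl (0.06 ± 0.03) and Zbtb16 (-0.08 ± 0.05). Lists of somatic markers were present at low summed levels in controls: 81.2 to 90.5 CPM for 12 Sertoli genes (led by Inha and Clu), 19.4 to 23.6 CPM for 9 Leydig genes (Fdx1 and Star), 69.6 to 87.0 CPM for 12 peritubular and stromal genes (Col1a1 and Col1a2), 93.5 to 111 CPM for 10 endothelial genes (Pecam1 and Egfl7), 5.01 to 6.03 CPM for 10 leukocyte genes (Cd14 and Csf1r) and 6.93 to 8.62 CPM for 6 erythroid genes (Slc4a1 and Hba-a1). Between the groups, the leukocyte sum did not overlap (6.26 to 6.55 CPM after doxorubicin, 9 of its 10 genes under 1 CPM in controls), nor did the erythroid sum (8.84 to 14.5 CPM), in which Slc4a1 rose (edgeR adjusted p = 0.0339) while Hba-a1 and Hbb had lower values. Of the 5 erythroid genes tested, 2 were positive and 3 negative. DESeq2 called 1 of them higher and 2 lower, against 0.959% of all genes it tested. The sums of the other lists overlapped, and no marker was at 0 in all libraries. Of 8 p53 response genes, 3 rose at an adjusted p below 0.05 in edgeR (Eda2r, Ccng1 and Aen), against 0.112% of all genes tested. All 8 were positive, where 47.8% of all genes tested were. This list was chosen with earlier results of these data known, so it is no independent check of the exposure. The p53 target Cdkn1a, a cell cycle inhibitor, ranged from 5.37 to 6.14 CPM in control and from 15.0 to 36.0 CPM in treated rats (edgeR quasi-likelihood test, adjusted p = 0.107; DESeq2 adjusted p = 6.44e-06). In bulk RNA, fewer cells of a type and less RNA per cell cannot be told apart.

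None of the 9 imprinted genes passed the test between the groups. At an adjusted p below 0.05, edgeR called 0 of 9 genes and DESeq2 0 of 9, and 0 of 9 reached an unadjusted p below 0.05. Over all genes tested, edgeR called 0.112% (18 higher and 1 lower), 6.76% had an unadjusted p below 0.05, and DESeq2 called 0.959% of the 17718 genes it tested. The log2 fold changes of the 9 genes ran from -0.16 to 0.14, 4 positive and 5 negative, where 47.8% of all genes tested were positive. Their median was -0.05, against -0.0047 over all genes tested. For every one of the 9 genes the rats of the 2 groups overlapped in CPM, and 4.72% of all genes tested had no overlap. Beside these shares, 0 of 9 is near the background and does not set these genes apart.

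**Figure D1:**
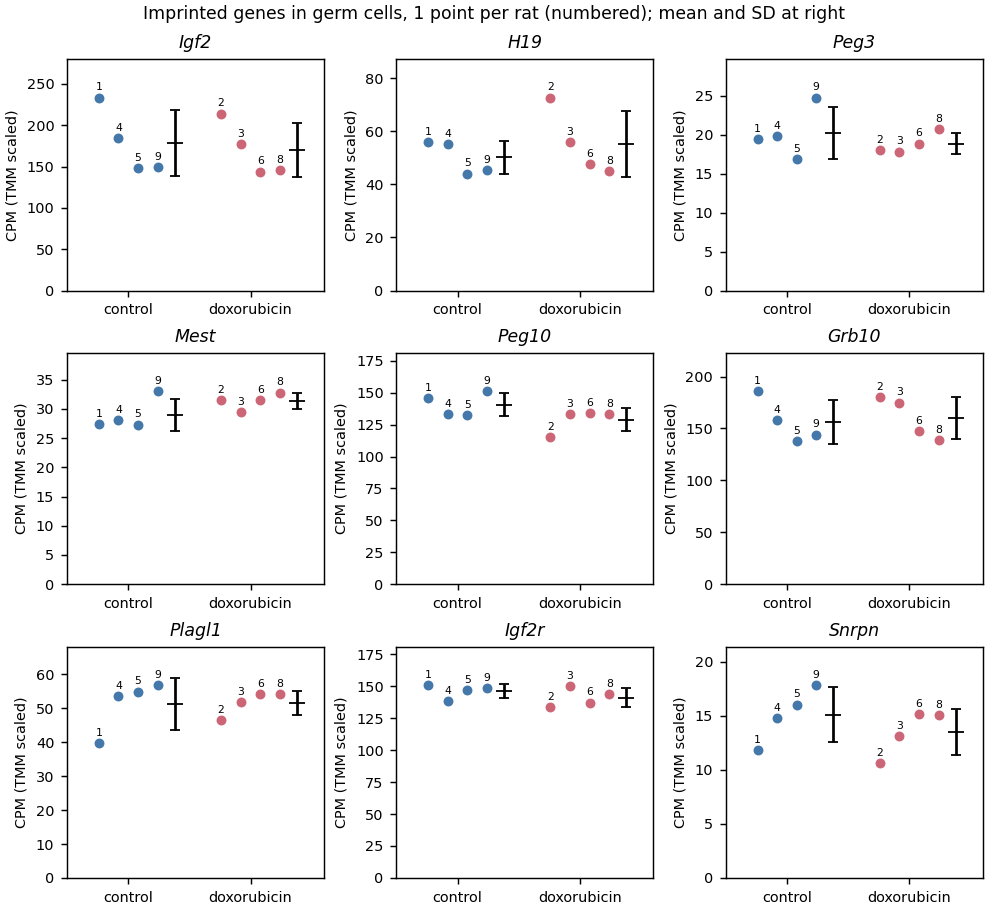
TMM-scaled CPM (y axis, from 0) of the 9 imprinted genes in control (blue) and doxorubicin (red) libraries, 1 point per rat labelled with its number, with the mean and SD at the right of each group. In each panel the points of the 2 groups overlap, and for Igf2 rats 1, 2, 3 and 4 stand above rats 5, 6, 8 and 9 whatever their group.

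The growth factor axis was represented by Igf2, H19, Igf2r and Grb10. Igf2 (ENSRNOG00000020369.8), an insulin-like growth factor expressed from the paternal allele in somatic tissue, stood at 233, 184, 148 and 149.6 CPM in control rats 1, 4, 5 and 9. After doxorubicin it stood at 214, 177, 144 and 146 CPM in rats 2, 3, 6 and 8. Each group held 2 rats below 150 CPM and 1 rat far above them, so the spread within a group was wider than the distance between the means. Those means were 179 ± 40.0 and 170.2 ± 32.9 CPM (SD, n = 4 each), and the fitted log2 fold change was -0.07 ± 0.19 (SE, edgeR adjusted p = 0.98). The 95% interval ran from a fold of 0.691 to 1.31, so changes within these bounds remained compatible with the values of these rats.

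H19 (ENSRNOG00000062678.1), the noncoding RNA made from the maternal allele just beside Igf2, was listed as protein coding in the table. Its level was 55.9, 55.2, 44.1 and 45.4 CPM in control rats 1, 4, 5 and 9. In treated rats 2, 3, 6 and 8 it was 72.7, 55.9, 47.7 and 45.0 CPM. Rat 2 was the highest of all 8 libraries, and the other treated rats lay within or close to the control range. The log2 fold change was 0.14 ± 0.16 (SE, edgeR adjusted p = 0.952), and it was -0.02 without doxorubicin rat 2.

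Igf2r (ENSRNOG00000014997.5) encodes the mannose 6-phosphate receptor, which takes IGF2 into lysosomes and is maternally expressed in rodents. It was the steadiest of the 9 genes in controls, with a coefficient of variation of 3.75%. Control rats 1, 4, 5 and 9 had 151, 138, 147 and 148 CPM, and treated rats 2, 3, 6 and 8 had 133, 150.0, 137 and 144 CPM. The log2 fold change was -0.05 ± 0.04 (SE, edgeR adjusted p = 0.931), with a fold interval from 0.905 to 1.03, the tightest bound of the set.

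Grb10 (ENSRNOG00000004290.8) encodes an adaptor that binds and restrains the insulin and IGF1 receptors, and is maternally expressed in most somatic tissues. It stood at 186, 158, 138 and 144 CPM in control rats 1, 4, 5 and 9, and at 180.3, 174.8, 147 and 139 CPM in treated rats 2, 3, 6 and 8. Its 2 groups covered almost the same range, with a log2 fold change of 0.03 ± 0.12 (SE, edgeR adjusted p = 0.984).

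The other measured genes are paternally expressed in somatic tissue. Peg10 (ENSRNOG00000066798.1), a gene derived from a retrotransposon and needed in the placenta, came closest to a difference. Its level was 146, 133, 132 and 151 CPM in control rats 1, 4, 5 and 9, and 115, 133, 134 and 133 CPM in treated rats 2, 3, 6 and 8. Rat 2 lay below all others while the remaining treated rats lay within the control range. The log2 fold change was -0.12 ± 0.06 (SE; edgeR unadjusted p = 0.0504, adjusted p = 0.736), and it was -0.07 without doxorubicin rat 2.

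Mest (ENSRNOG00000048088.3), which encodes a hydrolase-like protein of the mesoderm, stood at 27.4, 28.1, 27.3 and 33.0 CPM in control rats 1, 4, 5 and 9. In treated rats 2, 3, 6 and 8 it stood at 31.5, 29.5, 31.6 and 32.8 CPM. All treated rats were above control rats 1, 4 and 5 but below control rat 9. The log2 fold change was 0.12 ± 0.07 (SE, edgeR adjusted p = 0.822), and 0.19 without control rat 9 (adjusted p over the alternatives was at least 0.418).

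Plagl1 (ENSRNOG00000025587.5), also called Zac1, encodes a zinc finger transcription factor that regulates other imprinted genes and slows the cell cycle. It stood at 39.8, 53.7, 54.9 and 56.9 CPM in control rats 1, 4, 5 and 9, and at 46.5, 51.8, 54.2 and 54.2 CPM in treated rats 2, 3, 6 and 8. Control rat 1 was the lowest of the 8 libraries and treated rat 2 the next. The log2 fold change was 0.01 ± 0.10 (SE, edgeR adjusted p = 0.996).

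Peg3 (ENSRNOG00000014791.9), another zinc finger factor, stood at 19.4, 19.8, 16.8 and 24.8 CPM in control rats 1, 4, 5 and 9, and at 18.0, 17.8, 18.9 and 20.7 CPM in treated rats 2, 3, 6 and 8. The highest and the lowest value were both from controls. Its log2 fold change was -0.10 ± 0.10 (SE, edgeR adjusted p = 0.945), and 0.02 without control rat 9.

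Snrpn (ENSRNOG00000054391.2) encodes a core protein of splicing particles and shares a transcript with Snurf. The row carries the Entrez number that RefSeq gives to Snurf, so its counts cannot be assigned to one of the pair. It stood at 11.8, 14.8, 16.0 and 17.8 CPM in control rats 1, 4, 5 and 9, and at 10.6, 13.1, 15.2 and 15.1 CPM in treated rats 2, 3, 6 and 8. Rats 1 and 2, one from each group, had the lowest values. The log2 fold change was -0.16 ± 0.14 (SE, edgeR adjusted p = 0.924), the most negative of the 9, with a fold interval from 0.723 to 1.11.

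**Figure D2:**
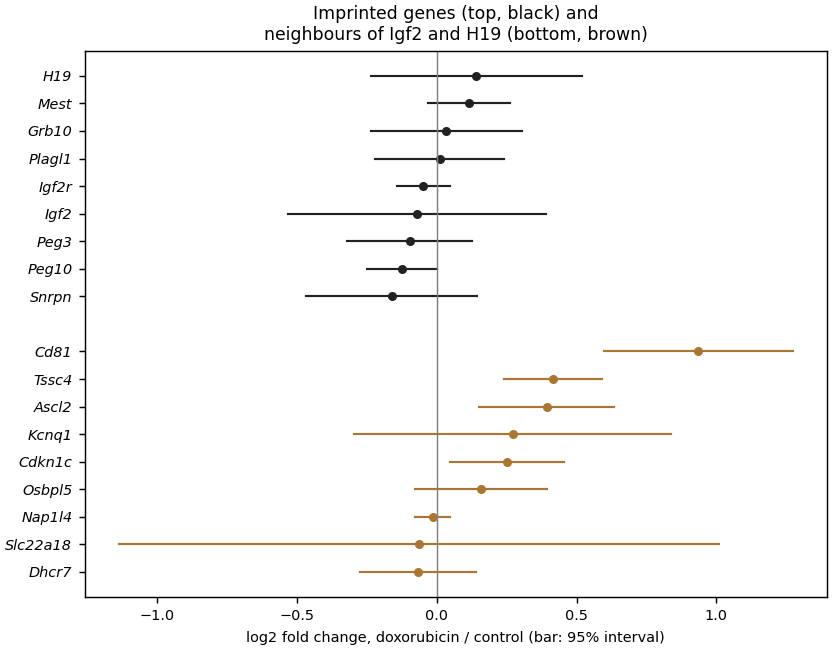
Log2 fold change after doxorubicin (x axis, points) with its 95% interval (bars) from edgeR for the 9 imprinted genes (black, top) and for the 9 tested neighbours of Igf2 and H19 in their imprinted domain (brown, bottom). All 9 black bars reach 0, with Peg10 at its edge, while Cd81, Tssc4, Ascl2 and Cdkn1c lie to the right of it.

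For 5 of the 9 imprinted genes the values divided the rats by number and not by group, 3 genes in one direction and 2 in the other. Igf2, H19 and Grb10 were higher in rats 1, 2, 3 and 4 than in rats 5, 6, 8 and 9, with no overlap, and each of these sets of rats holds 2 controls and 2 treated rats. Igf2 ran from 177 to 233 CPM in rats 1 to 4 and from 144 to 149.6 CPM in rats 5 to 9. The corresponding ranges were 55.2 to 72.7 and 44.1 to 47.7 CPM for H19, and 158 to 186 and 138 to 147 CPM for Grb10. Plagl1 and Snrpn had the reverse order, at 39.8 to 53.7 against 54.2 to 56.9 CPM and at 10.6 to 14.8 against 15.1 to 17.8 CPM. Peg3, Mest, Peg10 and Igf2r overlapped between the sets. The 5 of 9 genes that separated these rats compare with 9.29% of all genes tested (4.55% higher and 4.74% lower in rats 1 to 4). Library size went partly with the same division. Totals were 54933168 to 58871101 counts in rats 1 to 4 and 41253848 to 55783197 in rats 5 to 9, which overlap. After TMM scaling, 1 CPM stood for 55.4 to 57.8 counts in rats 1 to 4 and 41.7 to 55.3 in rats 5 to 9, without overlap. The part of library size in these levels was not tested. The labels give no meaning to the rat numbers, and this division was chosen after the values were seen, so no test is given.

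**Figure D3:**
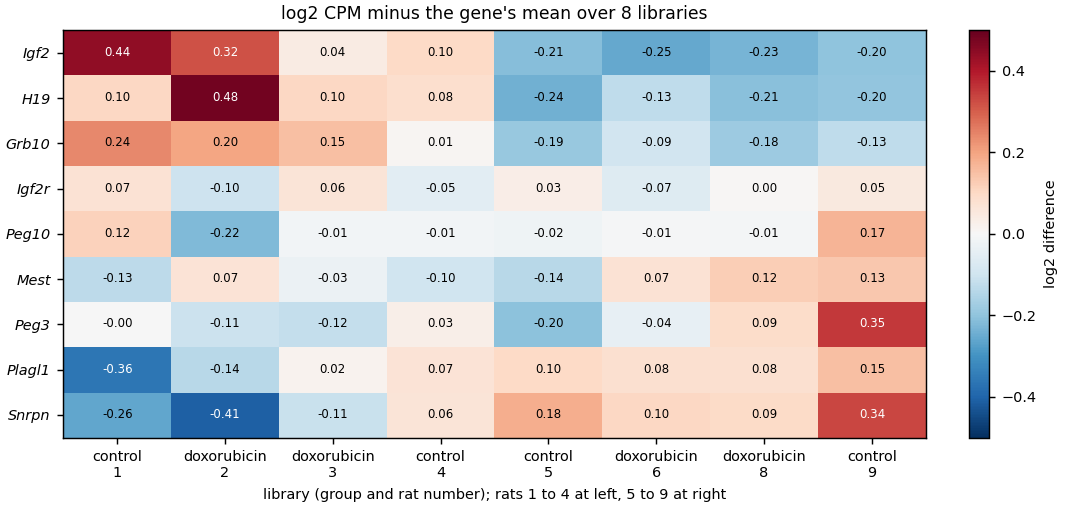
Log2 CPM of each imprinted gene (rows) in each library (columns, rats 1 to 4 at left and 5 to 9 at right) minus that gene's mean over the 8 libraries, with red above and blue below the mean. Igf2, H19 and Grb10 are above their means in rats 1 to 4 and below them in rats 5 to 9. Grb10 in control rat 4 (0.01) and Igf2 in doxorubicin rat 3 (0.04) are close to the mean. Snrpn is lowest in rats 1 and 2, at -0.26 and -0.41.

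Across the 8 libraries the log2 CPM of Igf2 and Grb10 had a Pearson r of 0.93, that of Igf2 and H19 0.828, and that of Plagl1 and Snrpn 0.822. Igf2 and Plagl1 had an r of -0.895, and H19 and Snrpn one of -0.893. These values describe 8 libraries that share scaling and carry the division above. The gene most like Igf2 among 12752 others was Lhx2 (r = 0.996), that most like Grb10 was Ttc7b (0.989), that most like H19 was Pitpnm2 (0.982), that most like Plagl1 was Ubxn4 (0.982), and that most like Snrpn was Fads2 (0.995). Such values are common here, since 291 genes had an r above 0.9 with Igf2 and 231 with Snrpn. Mest was most like Rin2 (0.971), Peg10 like Alg10 (0.967), Igf2r like Icmt (0.963) and Peg3 like Mpdz (0.944), with 4 to 27 genes above 0.9 for these 4 members.

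The summed level of the Leydig list divided the rats in the same way, at 21.9 to 23.6 CPM in rats 1 to 4 and 16.1 to 19.8 CPM in rats 5 to 9. Among its 9 genes, 2 divided the rats with no overlap, against 9.29% of all genes tested, and these were named after their values were seen. The rest overlapped, and Nr5a1 (1.87 CPM) and Hsd17b3 (0.456 CPM) were highest of all 8 libraries in control rat 9. Cyp17a1, the steroid 17-alpha-hydroxylase, stood at 1.37, 1.66, 2.00 and 1.68 CPM in rats 1, 2, 3 and 4 and at 0.929, 0, 0 and 0.336 CPM in rats 5, 6, 8 and 9. Insl3, the Leydig cell hormone of testis descent, stood at 0.422, 0.398, 0.415 and 0.248 CPM in rats 1, 2, 3 and 4 and at 0.209, 0.095, 0.127 and 0.168 CPM in rats 5, 6, 8 and 9. Fdx1, a mitochondrial ferredoxin that many cells express, held 12.4 CPM of the sum in controls and overlapped between the sets, and 5 of the 9 genes were under 1 CPM in controls. The summed levels of the Sertoli, stromal, endothelial, leukocyte, erythroid and germ cell lists overlapped between the 2 sets of rats. The part of the Leydig signal in the levels of Igf2, H19 and Grb10 was not tested. The set of rat numbers was also fitted as a block in edgeR, although it was chosen after these values were seen. A smaller SE for genes that divide the rats follows from that choice (Igf2 0.19 to 0.08, Grb10 0.12 to 0.05) and says nothing about the division. With this block 0 of the 9 genes passed (the lowest edgeR adjusted p was 0.543, for Peg10).

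H19 and Igf2 compete for shared enhancers in somatic tissue, so the counts of H19 were also set against those of Igf2 within each library, a value that does not depend on scaling. There were 0.239, 0.299, 0.297 and 0.304 H19 counts per Igf2 count in control rats 1, 4, 5 and 9. Treated rats 2, 3, 6 and 8 had 0.339, 0.316, 0.331 and 0.308. All treated rats lay above all controls, though control rat 9 and treated rat 8 were 0.304 and 0.308. H19 had 1895 counts in control rat 9, a counting error of 2.30%, which is wider than the gap between these rats. The means were 0.285 ± 0.030 and 0.324 ± 0.014 (SD, n = 4 each), a difference of 0.0387 that ran from 0.0235 without control rat 1 to 0.0449 when other libraries were left out in turn. This ratio was singled out after its values were seen and has no test. Of the 36 ratios between 2 of the 9 genes, 2 did not overlap between the groups, this one and that of Mest to Peg10. The share over pairs of other genes was not computed, and the 36 ratios share their genes, so this count is no result about these pairs.

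**Figure D4:**
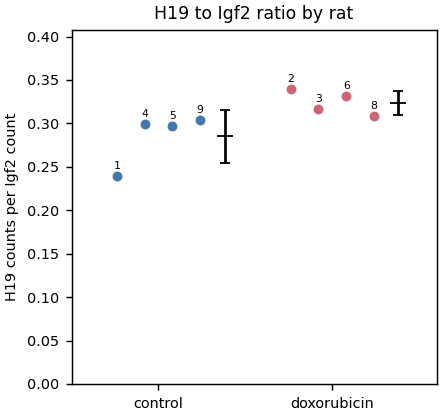
H19 counts per Igf2 count (y axis, from 0) in each control (blue) and doxorubicin (red) library, labelled with the rat number, with the mean and SD at the right of each group. Control rat 1 is the lowest at 0.239, and the remaining 3 controls lie just under the treated rats, which start at 0.308.

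A wider list of 61 other genes known to be imprinted in rodents, at least in some tissues, gave 53 rows, 42 of them tested. At an adjusted p below 0.05, edgeR called 1 of these 42, higher (Cd81), against 0.112% of all genes. In all 24 were positive and 18 negative, with a median log2 fold change of 0.01 (-0.0047 over all genes). Before adjustment, 4 were higher and 1 lower at p below 0.05, where all genes gave 4.19% higher and 2.56% lower. The groups did not overlap for 3 that were higher and 1 that was lower, where all genes gave 2.77% and 1.95%. Of the 21 tested genes that are maternally expressed in somatic tissue, 13 were positive, and of the 19 paternally expressed ones 10 were.

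The 4 genes that were higher before adjustment all came from the domain of Igf2 and H19 and the adjoining Kcnq1 domain on chromosome 1. Cd81 (ENSRNOG00000020451.8), a tetraspanin of the cell surface, stood at 4.29, 3.58, 3.15 and 3.88 CPM in control rats 1, 4, 5 and 9 and at 9.10, 7.58, 6.22 and 5.56 CPM in treated rats 2, 3, 6 and 8. It rose from 3.73 ± 0.48 to 7.11 ± 1.57 CPM (SD, n = 4 each), and the fitted log2 fold change was 0.94 ± 0.16 (SE, edgeR adjusted p = 0.0475; DESeq2 adjusted p = 7.30e-06). The edgeR call was close to the threshold and was lost in 9 of 16 alternatives, among them the removal of any 1 library other than doxorubicin rat 2, with adjusted p up to 0.217, while the log2 fold change stayed between 0.79 and 1.04. Tssc4, an assembly factor of splicing particles encoded beside it, stood at 91.9, 92.6, 87.6 and 92.9 CPM in control rats 1, 4, 5 and 9 and at 146, 109, 116.4 and 116 CPM in treated rats 2, 3, 6 and 8. All treated rats were above all controls, with a log2 fold change of 0.42 ± 0.08 (SE, edgeR adjusted p = 0.0929). DESeq2 called Tssc4 (adjusted p = 0.000128), as did edgeR without doxorubicin rat 2 (adjusted p = 0.00223).

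**Figure D5:**
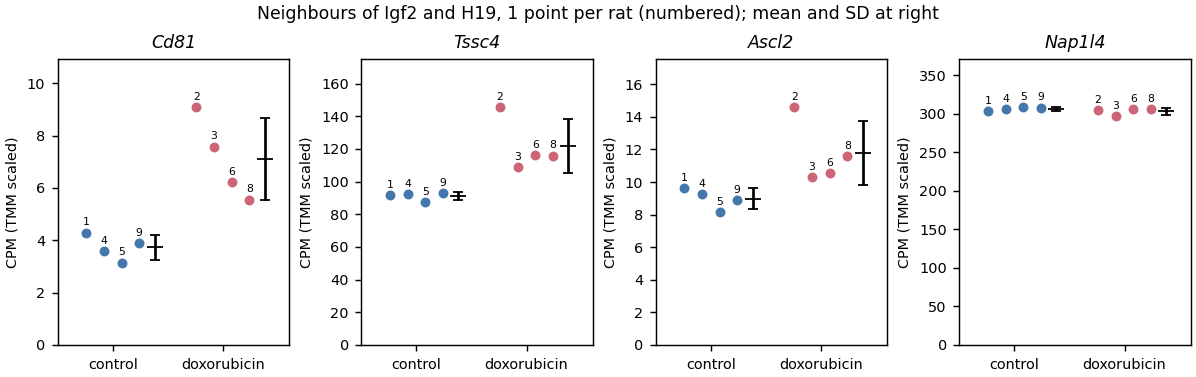
TMM-scaled CPM (y axis, from 0) of Cd81, Tssc4, Ascl2 and Nap1l4 in control (blue) and doxorubicin (red) libraries, 1 point per rat labelled with its number, with the mean and SD at the right of each group. All treated rats lie above all controls for Cd81, Tssc4 and Ascl2, while Nap1l4 stays between 296.8 and 309 CPM in all 8.

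Ascl2, a transcription factor of trophoblast and stem cells, stood at 8.97 ± 0.63 and 11.8 ± 1.98 CPM, again without overlap, and its log2 fold change was 0.39 ± 0.11 (SE, edgeR adjusted p = 0.318; DESeq2 adjusted p = 0.0783). Cdkn1c, which encodes the cell cycle inhibitor p57, had 16.5 ± 1.47 and 19.6 ± 2.51 CPM with overlap (log2 fold change 0.25 ± 0.09, edgeR adjusted p = 0.578). In RefSeq's GRCr8 order Ascl2, Tspan32, Cd81 and Tssc4 follow each other. Tspan32 was not tested, at 1 to 3 counts in control libraries and 3 to 8 in treated ones. The domain has 14 listed neighbours, 13 with a row and 9 tested, of which 6 were positive, around a median of 0.25 (log2). At its end away from H19, Nap1l4, a histone chaperone, Osbpl5, a lipid transfer protein, and Dhcr7, the last enzyme of cholesterol synthesis, were not called, with log2 fold changes of -0.01 ± 0.03, 0.16 ± 0.11 and -0.07 ± 0.09 (SE). The summed leukocyte and erythroid levels given above were, like Cd81, Tssc4 and Ascl2, higher in all treated rats than in all controls. Single genes were positive for 7 of 8 tested in the leukocyte list and 2 of 5 in the erythroid list, where 47.8% of all genes were. The erythroid sum thus does not stand for most of its genes. Within the groups the sums and these neighbours did not keep 1 order. Control rat 1 had the highest Cd81 of the controls (4.29 CPM) and the lowest of both sums (5.01 and 6.93 CPM). Treated rat 2 had the highest Cd81 (9.10 CPM) and the highest erythroid sum (14.5 CPM). The part of these sums in the values of Cd81, Tssc4 and Ascl2 was not tested. No source used here says whether the counting used strand, and reads shared by overlapping genes cannot be told apart.

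Neighbours of the other imprinted genes gave 0 calls, where edgeR called 0.112% of all genes tested. The neighbour with the smallest p was Ddc, aromatic L-amino acid decarboxylase, in the Grb10 domain, with 0.612 ± 0.066 CPM in control and 0.375 ± 0.080 CPM in treated rats, without overlap (log2 fold change -0.69 ± 0.23, edgeR adjusted p = 0.479). Its counts were 13 to 36 per library. In the remaining domains the neighbours with the smallest p were Peg12 near Snrpn, Usp29 near Peg3, Pon2 near Peg10, Copg2 near Mest, Slc22a3 near Igf2r and Rtl1 near Meg3, with log2 fold changes of -0.49, 0.13, 0.15, -0.03, 0.07 and 0.22 and edgeR adjusted p from 0.78 to 0.977. Dlk1, the paternally expressed Notch ligand relative of the Meg3 domain, had mean levels of 67.8 CPM in control and 67.0 CPM in treated rats (log2 fold change -0.02 ± 0.06). Abundant imprinted genes outside these domains were likewise not called: Impact, a regulator of translation, had a log2 fold change of 0.04 ± 0.06, Zdbf2 one of 0.03 ± 0.05, Gab1, an adaptor of growth factor receptors, one of 0.11 ± 0.05, and Inpp5f, a phosphoinositide phosphatase, one of 0.01 ± 0.05.

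The IGF pathway around Igf2 gave 0 calls of 18 tested members, Igf2, Igf2r and Grb10 included, against 0.112% of all genes, with 8 positive and 10 negative. DESeq2 called 0, against 0.959%, and before adjustment 1 was higher and 1 lower, against 4.19% and 2.56% of all genes. Ligands other than Igf2 were scarce, Igf1 at 1.92 CPM and Ins2 at 0 to 4 counts per library. The receptors Igf1r and Insr had log2 fold changes of 0.03 ± 0.05 and -0.08 ± 0.12. Members with the smallest p were Igf2bp3, an RNA-binding protein that acts on Igf2 transcripts (0.12 ± 0.05, edgeR adjusted p = 0.651), the binding protein Igfbp2 (-0.20 ± 0.08, edgeR adjusted p = 0.671) and the receptor substrate Irs2 (0.12 ± 0.07, edgeR adjusted p = 0.835).

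Factors that write, read and keep imprints gave 0 calls of 15 tested, with 5 positive and 10 negative. DESeq2 also called 0, and 0 reached an unadjusted p below 0.05. With 0.112%, 0.959% and 6.76% of all genes past these thresholds, 0 of 15 is near the background and is no result about these factors. Dnmt1, the maintenance methyltransferase, averaged 770.1 ± 31.0 CPM in control and 731 ± 15.1 CPM in treated rats (log2 fold change -0.07 ± 0.03, edgeR adjusted p = 0.741). Zfp57, whose protein binds the hexamer when it is methylated, had 6.35 ± 0.80 and 7.52 ± 0.91 CPM (0.24 ± 0.12, edgeR adjusted p = 0.758). The value for Ctcf, the insulator protein of the Igf2 and H19 locus, was -0.07 ± 0.04 (edgeR adjusted p = 0.784). The corepressor Trim28, which works with ZFP57, was at 574 ± 22.8 and 574 ± 16.2 CPM. Ctcfl, the testis relative of Ctcf, was at 0.24 CPM in controls.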

How the data were processed

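The authors deposited a table of estimated counts per gene for 8 libraries, not normalized. Per the submitters' processing notes, kallisto 0.48.0, featureCounts, fastp 0.23.2, Trimmomatic and build rn6 were used, in roles and an order not given in the sources used here. Libraries were tied to rats by the column names in the labels. Counts were rounded, filtered by filterByExpr, TMM scaled and tested with edgeR 4.0.16 in R 4.3.3 (quasi-likelihood F test, robust fit, no covariate), with Benjamini-Hochberg adjustment over 16976 genes and a threshold of 0.05. DESeq2 1.42.0, limma 3.58.1 (voom), other scalings and filters, a fit that was not robust, and leaving out each library were alternatives. The procedure was also run on simulated counts drawn independently for each library, and the outcome is not given here. No sets of rat numbers were built into them, so the run says nothing about data with that division. Fold changes are doxorubicin over control, with intervals of 95%. Log2 CPM for correlations used a prior count of 2. The likeness search took genes with a mean of at least 1 CPM and a symbol of their own.

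The 10 genes and all lists were chosen with earlier results of these data known. The text names all 10 genes, then, of other imprinted genes, those past the threshold, the 8 most abundant in controls and the neighbour with the smallest p in each domain. From the germ cell, IGF, imprint maintenance and p53 lists it names members past the threshold and the 3 with the smallest p. Cdkn1a is named as a p53 target. Somatic lists are given by their sums and 2 most abundant genes. Ddx4, Dlk1, Ascl2, Cdkn1c, Tspan32, Igf1, Ins2, Igf1r, Insr, Osbpl5, Hbb, Cyp17a1, Insl3, Nr5a1, Hsd17b3, Trim28 and Ctcfl were added after their values were seen. Hm13 stood for H13. Promoters came from RefSeq's GRCr8 and no other coordinates are given, since the files' build differs.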

Additional observations from a re-analysis of the deposited data

Results flagged for a closer look

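Of 32 groups of 4 libraries examined for a single stray library, 4 held one, and by chance about 1 group in 20 would. Mest stood at 33.0 CPM in control rat 9, against 27.3 to 28.1 CPM in the other controls. Peg10 stood at 115 CPM in doxorubicin rat 2, against 133 to 134 CPM in the other treated rats. The ratio of H19 to Igf2 counts was 0.239 in control rat 1, against 0.297 to 0.304 in the other controls. Nap1l4 stood at 296.8 CPM in doxorubicin rat 3, against 305 to 306 CPM in the other treated rats.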

How the results depend on the processing

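In all 17 alternatives run, 0 of the 9 imprinted genes passed. Direction depended on single rats for 5 of them: leaving out 1 library in turn gave log2 fold changes from -0.20 to 0.083 for Igf2, -0.0193 to 0.229 for H19, -0.17 to 0.0174 for Peg3, -0.0267 to 0.13 for Grb10 and -0.0943 to 0.0662 for Plagl1. The sign turned without control rat 1 (Igf2, Plagl1), 5 (Grb10) or 9 (Peg3), or without doxorubicin rat 2 (H19, Grb10), 3 (Grb10), 6 (Igf2, Plagl1) or 8 (Plagl1). The cause was not tested. Mest stayed positive, and Peg10, Igf2r and Snrpn negative, in all alternatives. Scaling, filter and tool turned no direction. Among other imprinted genes the count of calls was 1, and 2 with DESeq2 or at an adjusted p below 0.10 (Cd81 and Tssc4), 0 with limma-voom or a mean of at least 1 CPM, and 0 to 2 with 1 library left out. Over all genes the count was 19, and 170 with DESeq2, 5 with limma-voom, 53 without robust fitting, 61 with the set of rat numbers as a block (added after seeing the data), and 1 to 62 with 1 library left out. No symbol of the 10 repeats, so summing rows was not run. No paired analysis was possible because the groups share no rat number. All p-values measure the spread over 4 rats a group.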
